A study of Homo sapiens with 23 samples.

Results

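The comparison set clone 8 against clone 9, a pair of melanoma clones that had both grown out under vemurafenib, an inhibitor of mutant BRAF. It used 6 of the 23 RNA libraries of the series, 3 of each clone, chosen by their labels alone, and covered every gene tested. The 3 libraries of untreated cells served only as a reference level. WM989 A6-G3, the parental line, is a BRAF-mutant human melanoma line that was bottlenecked to a single cell on 2 occasions, and its genotype is labelled WT in every group. Each resistant clone was expanded from 1 isolated colony, named WM989 A6-G3 G12 for clone 8 and WM989 A6-G3 I11 for clone 9, and was kept in 1 µM vemurafenib. The untreated cells were grown without drug. Each clone stands for 1 colony, so a difference between them is a difference between 2 colonies of 1 line in 1 drug. The labels give the 3 libraries of a clone biological replicate numbers but not how they were separated, so the spread between them may be technical. The p-values rest on the spread within groups over all 23 libraries in 8 groups, not on these 6 libraries alone. Poly(A) RNA was measured, and levels are given as scaled TPM. TPM is a unit that corrects for transcript length and library total, and it was divided by a factor that aligns the libraries.

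BRAF inhibition blocks the kinase cascade from BRAF through MEK to ERK that drives growth in BRAF-mutant melanoma. Cells that survive it often lose melanocyte pigment genes and turn on genes of mesenchymal cells, such as collagens, contractile proteins and growth factor receptors. Different colonies of 1 line can arrive at different programs of this kind, and the series asks how such clones differ.

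Both clones were far from untreated cells in melanocyte identity. PMEL, a structural protein of the melanosome, had means of 31.2 ± 3.85 TPM in clone 8 and 36.0 ± 2.58 TPM in clone 9 against 9864 ± 157 TPM in untreated cells (SD, n = 3 each). SOX10, a regulator of the melanocyte lineage, had means of 1.45 TPM in clone 8, 0.510 TPM in clone 9 and 468 TPM in untreated cells. These defining markers of the labelled cell type were thus far below the untreated level in both clones. Of the markers of fibroblasts, the cells whose matrix genes the clones express, 2 of 9 (THY1 and TCF21) were under 1 TPM in all 6 libraries. Their summed level was 3014 to 5154 TPM in clone 8, 4776 to 5360 TPM in clone 9 and 59.4 to 69.0 TPM in untreated cells. In the clones the sum was mostly COL1A1, at 2696 to 4926 TPM over the 6 libraries, so it does not show how the other markers differed.

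A library of clone 8 stood apart from the others of that clone. Clone 8 replicate 3 correlated across genes at r = 0.965 and 0.964 with the other libraries of clone 8, which correlated at 0.993 with each other. Its mean absolute log2 difference from them was 0.461 and 0.452, against 0.155 between them. Ribosomal protein transcripts made up 28.7% of clone 8 replicate 3 and 18.6% and 20.7% of the other clone 8 libraries, and mitochondrially encoded transcripts 6.74% against 12.2% and 10.1%. Its scaling factor was 0.743, against 1.04 and 1.00. Long transcripts were lower in it, with a median shift of -0.18 in the longest 25% of genes against 0.05 in the shortest 25%. Clone 9 replicate 2 moved the same way by less, at r = 0.984 and 0.982 with the other clone 9 libraries. The part of these shifts in the results was not tested, and values without the libraries are given where they change a call. Between 21021 and 23014 genes were above 0 per library, and TPM values keep no sequencing depth.

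In all, 292 genes were higher and 499 lower in clone 8 than in clone 9 among 15657 tested (limma, Benjamini-Hochberg adjusted p under 0.05 and a log2 fold change of at least 1 in size). These were 1.86% and 3.19% of all genes tested, 5.05% together. The libraries of the clones did not overlap for 788 of the 791 called genes, beside 38.2% of all genes tested. The median size of the change was 1.36 on the log2 scale for the higher genes and 1.43 for the lower genes. The lower side held more of the large differences: 115 genes were lower by at least 2 on the log2 scale and 42 by at least 3, against 52 and 12 higher. Without clone 8 replicate 3 the counts were 299 higher and 483 lower (1.91% and 3.08%, 4.99% together), of which 244 and 429 were among those called with it. Without clone 9 replicate 2 as well they were 270 and 447 (1.72% and 2.85%, 4.58% together). With the values as deposited they were 237 and 605 (1.51% and 3.86%, 5.38% together). Clones 7 and 8 differed by 576 genes and clones 7 and 9 by 769, in comparisons that share these libraries. In bulk RNA, a lower share of cells with a transcript and less of it per cell cannot be told apart.

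For most of the genes called, the untreated mean lay nearer to the clone with less. Of the 292 higher genes, the untreated mean lay nearer to clone 9 for 231, and below both clones for 193. Of the 499 lower genes, it lay nearer to clone 8 for 389, and below both clones for 291. The untreated mean lay between the clones and at least 1 from each on the log2 scale for 9 genes. Among them was ALDH1A1, a retinal dehydrogenase, at 0.285, 0.237 and 0.223 TPM in clone 8, 25.9, 21.2 and 26.4 TPM in clone 9 and a mean of 3.37 TPM in untreated cells. Its log2 fold change was -4.35 ± 0.55 (SE, adjusted p = 1.27e-05). Clone 8 was below the parental level and clone 9 above it.

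The same held for NSG1, a protein of neuronal endosomes, with means of 4.57 ± 2.77 TPM in clone 8, 87.9 ± 5.89 TPM in clone 9 and 11.9 ± 5.54 TPM in untreated cells (SD, n = 3 each). It held also for TSPAN33, a tetraspanin, at 7.90 and 89.9 TPM around 32.2 TPM, and for TBXAS1, thromboxane synthase, at 2.30 and 23.4 TPM around 6.39 TPM. KIAA1324L stood at 0.178 TPM in clone 8, 4.79 TPM in clone 9 and 1.37 TPM in untreated cells.

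Genes of the contractile apparatus formed the group with the largest share called higher in clone 8 of the 42 pathway lists. Smooth muscle and myofibroblasts contract when myosin light chain kinase phosphorylates myosin, which then pulls on filaments of smooth muscle actin decorated with tropomyosin and calponin. Many of these genes are switched on by serum response factor, which binds the CArG box in promoters, together with its coactivator myocardin. The promoter sequences listed under ACTG2 and MYLK, the contractile genes with the largest differences, hold this box and are shown for that reason. The MYLK sequence belongs to a transcript start listed under that gene symbol. Whether the transcript of the full kinase begins there was not tested. The MYLK levels below are those of the whole gene and were not divided among its transcripts, so they cannot be assigned to this start. Each line gives the 250 bases before the transcript start from RefSeq (build GRCh38.p14), at chr2:73892758-73893007 on the plus strand for ACTG2 and at chr3:123620549-123620798 on the minus strand for MYLK, with CArG boxes in capitals.
ACTG2: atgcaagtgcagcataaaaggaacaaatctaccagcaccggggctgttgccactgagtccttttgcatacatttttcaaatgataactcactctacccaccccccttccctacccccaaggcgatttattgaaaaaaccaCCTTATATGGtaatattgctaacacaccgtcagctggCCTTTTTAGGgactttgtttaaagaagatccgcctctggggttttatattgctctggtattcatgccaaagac
MYLK: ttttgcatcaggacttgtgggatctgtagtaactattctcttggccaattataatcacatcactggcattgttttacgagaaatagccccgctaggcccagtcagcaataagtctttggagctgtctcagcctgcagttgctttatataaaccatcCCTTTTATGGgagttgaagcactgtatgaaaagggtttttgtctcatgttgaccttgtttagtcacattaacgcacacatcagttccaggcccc
The boxes begin 110 and 73 bases before the start in ACTG2 and 94 bases before it in MYLK.

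ACTG2 encodes the gamma-actin of smooth muscle. It stood at 1098, 1120 and 1356 TPM in the 3 libraries of clone 8, at 16.3, 17.2 and 16.2 TPM in those of clone 9, and at a mean of 3.28 TPM in untreated cells. All clone 8 libraries were far above all clone 9 libraries. The log2 fold change of 6.08 ± 0.37 (SE, adjusted p = 1.22e-09) was the largest rise of any gene under the naming rule.

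MYLK, the myosin light chain kinase, was at 865, 868 and 571 TPM in clone 8 and 61.2, 47.1 and 63.9 TPM in clone 9. Its log2 fold change was 3.71 ± 0.23 (SE, adjusted p = 1.83e-09). LMOD1, leiomodin, which nucleates actin filaments in smooth muscle, was at 24.8, 25.0 and 20.5 TPM against 1.67, 1.66 and 1.76 TPM, a log2 fold change of 3.17. MYOCD, myocardin itself, was at 63.5, 61.0 and 36.2 TPM in clone 8 and 1.93, 1.42 and 1.75 TPM in clone 9, a log2 difference of 4.30 ± 0.31 (SE, adjusted p = 1.05e-08). The coactivator and these 3 contractile genes were named for being higher in clone 8 without overlap, so their shared direction was fixed by that choice. Whether MYOCD acts on the others was not tested. In untreated cells MYOCD had a mean of 0.0980 TPM.

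Of 26 tested genes of the contractile and intermediate filament list, 11 rose and none fell, beside 1.86% and 3.19% of all genes tested. The counts of every other list are to be read beside these same shares. The median log2 fold change of the list was 0.75, against -0.01 over all genes. The same 11 to 0 count stood without clone 8 replicate 3, with a median of 0.56. With the values as deposited, 1 gene of the list was called lower.

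The other risers are named after their values were seen. ACTA2, smooth muscle alpha-actin, was at 2791, 2957 and 3427 TPM in clone 8 and 451, 511 and 476 TPM in clone 9. TAGLN, the actin-binding transgelin, had means of 546 ± 143 and 101 ± 12.2 TPM, CNN1, calponin, of 30.9 ± 3.91 and 4.65 ± 0.537 TPM, and TPM1, tropomyosin, of 1231 ± 79.2 and 548 ± 21.8 TPM (SD, n = 3 each). DES, the muscle filament desmin, was low in both clones, at 1.76 and 0.241 TPM on average. SYNPO2, an actin-bundling protein, averaged 5.08 and 1.61 TPM. Smooth muscle actins are close in sequence, so reads of ACTA2 and ACTG2 could be divided between them by the estimation, and their levels are uncertain to that extent.

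The list also holds keratins, which are filaments of epithelial cells. KRT17 was at 6.03, 6.70 and 9.31 TPM in clone 8 and at 0.148, 0.0846 and 0.0391 TPM in clone 9, a log2 difference of 2.92 ± 0.29 (SE, adjusted p = 7.49e-07). KRT7 had means of 10.3 and 3.03 TPM. Of the keratinocyte markers, 6 of 9 were under 1 TPM in all 6 libraries, and KRT5, KRT14, KRT1 and EPCAM were at 0 in 3 or more of them. TP63, a regulator of epithelial lineages, was the marker of that list called higher, at 4.54, 4.37 and 2.48 TPM against 0.522, 0.459 and 0.375 TPM.

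**Figure D1:**
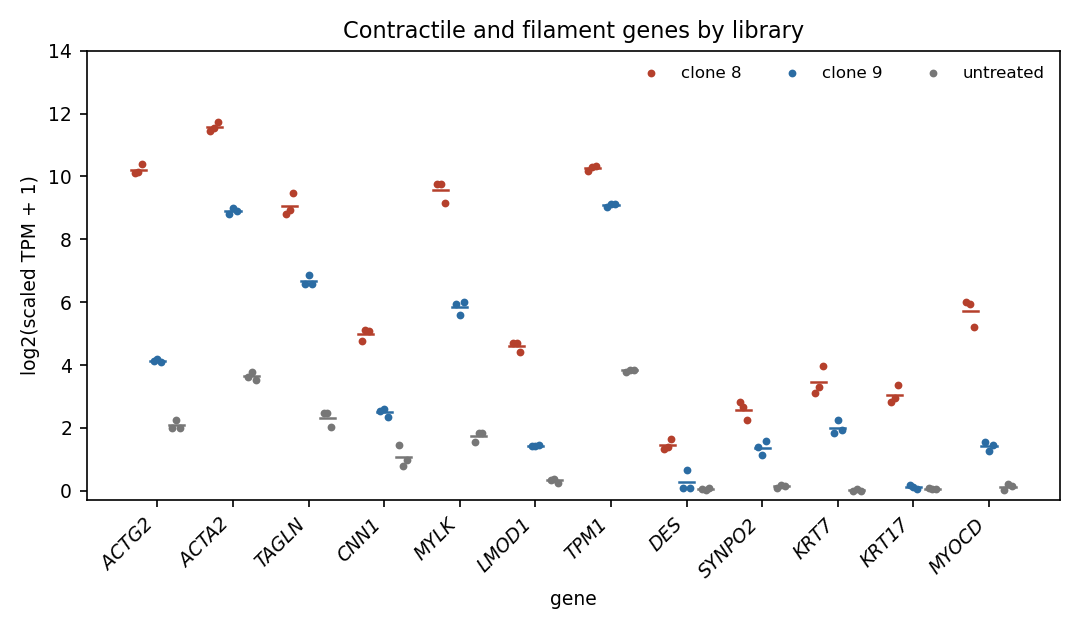
Scaled TPM of the 11 contractile and filament genes called higher in clone 8, and of MYOCD, in each library as log2(value + 1), with a bar at the group mean. In every gene the 3 red points of clone 8 lie above the 3 blue points of clone 9, and untreated cells (grey) lie at or below clone 9.

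Among 15106 promoters of 10208 tested genes, 1.13% held a CArG box in the 300 bases from 250 before to 50 after the start. The box was in 10 of 333 promoters of genes higher in clone 8 (3.00%) and in 4 of 538 of genes lower in clone 8 (0.743%). Apart from ACTG2 and MYLK, the higher genes with a box were ACTC1, ARHGDIB, ASB2, ISG15, LDB3, PDE4D and PRUNE2. CNN2, a calponin, and SMTN, smoothelin, are contractile genes of the list that hold a box and were not called (log2 fold changes -0.54 and 0.43). The lower genes with a box were FHL1, GPC2, IGFBP2 and PRND. ISG15 lost its call without clone 8 replicate 3 (0.92), and ACTC1 without that library and clone 9 replicate 2 (adjusted p = 0.0550). No box was found in the windows of ACTA2, CNN1, LMOD1, SYNPO2 and TPM1, which says only that these letters are not there.

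Other motifs were counted on both strands in the same windows. TGANTCA, the letters bound by AP-1, stood in 10.2% of promoters of higher genes, 7.81% of lower genes and 5.54% of all. GGAATG, bound by TEAD factors, stood in 13.2%, 14.3% and 11.7%, and CATGTG, bound by MITF, in 11.4%, 10.6% and 8.02%. CACGTG stood in 6.91%, 5.02% and 9.04%. TGACGT, part of the site of CREB and ATF factors, stood in 4.50%, 5.76% and 10.2%. The ETS letters CCGGAAG stood in 6.01%, 5.39% and 15.7%. CATGTG and CACGTG are variants of 1 site and differ in 1 base, so no position holds both on the same letters.

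Potassium channel genes had 4 of 21 tested members higher and 1 lower in clone 8, and 2 lower without clone 9 replicate 2 or with the values as deposited. KCNMA1 and KCNMB1 encode the pore and the smooth muscle subunit of the large-conductance calcium-activated channel. KCNMB1 was at 3.42, 3.64 and 3.43 TPM in clone 8 and 0.325, 0.498 and 0.425 TPM in clone 9, a log2 fold change of 1.67. KCNMA1 had means of 48.2 ± 21.3 and 12.1 ± 2.04 TPM, with clone 8 replicate 3 the highest at 72.8 TPM. KCNJ6, an inward rectifier, was higher by 1.60, and KCNJ2, another, was lower at -1.62. KCNN4, named after its values were seen, was the other called riser, at 1.59.

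Collagens and other matrix genes differed in the opposite direction for most called members. Fibroblasts build matrix from fibrillar collagens I and III, the beaded collagen VI, small proteoglycans such as decorin and lumican, and elastic fibre proteins. COL3A1, the chain of collagen III, was at 11.6, 10.6 and 8.87 TPM in clone 8 and 353, 341 and 346 TPM in clone 9, and at a mean of 0.204 TPM in untreated cells. The log2 fold change was -4.95 ± 0.33 (SE, adjusted p = 3.76e-09). Clone 9 thus carried the higher level in each of its libraries.

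COL1A1, the alpha-1 chain of collagen I, did not pass the test. It was at 4926, 4070 and 2696 TPM in clone 8 and 3916, 4291 and 3741 TPM in clone 9, with a log2 fold change of -0.07 (adjusted p = 0.882). COL1A2, the partner chain of the same collagen, was at 17.2, 15.3 and 16.7 TPM in clone 8 and 109, 127 and 106 TPM in clone 9, a log2 difference of -2.72 ± 0.45 (SE, adjusted p = 0.000234). The chains of collagen I were thus unequal in both clones. Across the 5 other resistant clones, COL1A2 had means of 3.17 to 366 TPM and COL1A1 of 2013 to 6187 TPM.

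Of 28 tested collagen chains, 8 were lower and 4 higher in clone 8. The median of the list was 0.03 and the mean -0.36, so they differ in sign, and the median was -0.05 with the values as deposited. COL6A3 was at 22.3, 19.8 and 14.4 TPM against 156, 138 and 156 TPM, a log2 fold change of -2.95. COL14A1, a collagen associated with fibrils, had means of 16.4 ± 4.84 and 130 ± 19.9 TPM, a log2 fold change of -2.94. The 4 higher chains, named after their values were seen, were COL5A3 (2.30), COL22A1 (1.51), COL7A1 (1.36) and COL16A1 (1.24). COL7A1 was at 15.0, 10.4 and 33.9 TPM in clone 8 and lost its call without replicate 3, where its log2 fold change was 0.91.

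Matrix glycoproteins and proteoglycans had 13 of 46 tested members lower and 1 higher, with a median of -0.48, and 12 and 2 without clone 8 replicate 3. MFAP4, a protein of elastic microfibrils, was at 7.56, 8.65 and 6.08 TPM in clone 8 and 241, 276 and 250 TPM in clone 9, a log2 difference of -4.94 ± 0.14 (SE, adjusted p = 5.12e-14). DCN, decorin, was at 7.33, 8.12 and 6.02 TPM against 104, 85.9 and 116 TPM, a log2 fold change of -3.65. EMILIN1, another elastic fibre protein, had means of 3.31 and 46.6 TPM, and MATN2, matrilin-2, of 3.27 and 20.8 TPM. EMID1, a secreted protein with the same EMI domain as EMILIN1, was at 0.851, 0.424 and 0.892 TPM against 32.9, 31.5 and 29.9 TPM. The riser of the list, named after its value was seen, was CSPG4, a proteoglycan of melanoma cells, at 1.52 with means of 25.0 and 7.95 TPM.

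**Figure D2:**
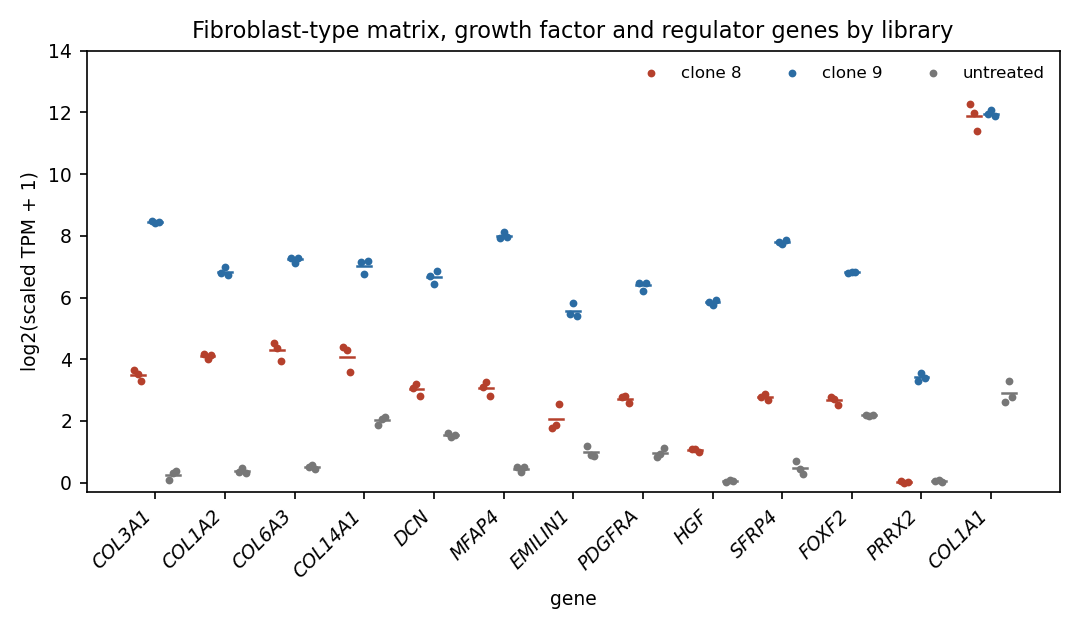
Scaled TPM of 12 matrix, growth factor and regulator genes that were lower in clone 8, and of COL1A1, which was not called, in each library as log2(value + 1), with a bar at the group mean. The blue points of clone 9 lie above the red points of clone 8 in each of the first 12 genes, and the points of COL1A1 overlap.

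Of the 7 fibroblast markers tested, 5 were lower in clone 8, COL3A1 and DCN among them, and COL1A1 was not called. PDGFRA, the receptor for PDGF on fibroblasts, was at 5.90, 5.95 and 4.93 TPM in clone 8 and 88.3, 73.2 and 88.3 TPM in clone 9, a log2 difference of -3.67 ± 0.21 (SE, adjusted p = 5.30e-10). PDPN, podoplanin, was at 0.155, 0.0430 and 0.461 TPM against 4.39, 5.50 and 4.18 TPM. LUM, lumican, named after its values were seen, had means of 122 and 377 TPM. FAP, a fibroblast surface protease, had means of 109 ± 36.0 and 135 ± 23.5 TPM and was not called (adjusted p = 0.266). The part of other cell types in these levels was not tested.

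Transcription factors of mesenchymal tissue had 7 of 25 tested members lower in clone 8 and none higher, with a median of -0.49. FOXF2, a forkhead factor of gut and lung mesenchyme, was at 5.84, 5.51 and 4.78 TPM in clone 8, 110, 113 and 114 TPM in clone 9 and a mean of 3.54 TPM in untreated cells. Its log2 fold change was -4.15 ± 0.20 (SE, adjusted p = 4.84e-11). PRRX2, a homeobox factor of limb and skin mesenchyme, was at 0.0343, 0 and 0.0179 TPM against 8.82, 10.7 and 9.54 TPM, near 0 in clone 8 as in untreated cells. FOXL1 averaged 0.164 and 3.52 TPM, and TBX2, a T-box repressor, 16.3 and 60.0 TPM. FOXF1 (-1.66) and FOXC1 (-1.40), named after their values were seen, were lower too. Without clone 8 replicate 3, 6 members were called lower.

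Growth factors and their receptors were unevenly distributed between the clones. HGF, the ligand of the receptor MET, was at 1.15, 1.12 and 0.971 TPM in clone 8 and 57.0, 53.7 and 59.3 TPM in clone 9, with a mean of 0.0433 TPM in untreated cells. The log2 fold change was -4.79 ± 0.55 (SE, adjusted p = 4.63e-06). Both clones were above untreated cells in every library, with means of 1.08 TPM in clone 8 and 56.6 TPM in clone 9.

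The list of ERBB, FGF, MET and PDGF receptors and ligands had 5 of 31 tested members lower and 3 higher. PDGFD, a PDGF ligand, was at 0.290, 0.346 and 0.283 TPM in clone 8, 15.5, 14.5 and 15.2 TPM in clone 9 and 2.12 TPM on average in untreated cells, which lay between. EREG, epiregulin, a ligand of EGFR, went the other way at 11.1, 10.8 and 9.35 TPM against 1.89, 1.74 and 1.74 TPM, a log2 fold change of 2.03. EGFR itself had means of 14.8 ± 5.03 and 16.7 ± 3.27 TPM and was not called (log2 fold change -0.20, adjusted p = 0.596).

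Of 35 tested genes of the AXL, neurotrophin, ephrin and other receptor kinase list, 7 were lower and 3 higher. IGFBP5, which binds insulin-like growth factors, was at 44.5, 41.1 and 29.7 TPM in clone 8 and 833, 652 and 838 TPM in clone 9, a log2 difference of -4.31 ± 0.29 (SE, adjusted p = 4.49e-09). ROR2, a WNT5A receptor, was at 17.6, 16.0 and 17.2 TPM against 1.05, 0.695 and 0.922 TPM, a log2 difference of 3.25 ± 0.25 (SE, adjusted p = 2.82e-08). GAS6, the ligand of AXL, was at 11.7, 10.5 and 13.3 TPM against 3.63, 3.44 and 3.46 TPM. AXL itself had means of 72.3 ± 8.29 and 67.7 ± 2.45 TPM in the clones, against 0.364 TPM in untreated cells, and was not called between them (adjusted p = 0.890). The ligand differed and its receptor did not pass the test. NTF3, neurotrophin-3, averaged 0.511 and 4.46 TPM.

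NGFR, the low-affinity neurotrophin receptor, lay at the fold threshold. Its libraries were at 2.42, 2.44 and 2.00 TPM in clone 8 and 0.673, 0.653 and 0.730 TPM in clone 9, without overlap, and its log2 fold change was 0.96 (adjusted p = 0.0107). Without clone 8 replicate 3 it was 1.02 and called.

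WNT ligands, receptors and antagonists had 5 of 30 tested members lower and 2 higher, and 1 higher without clone 9 replicate 2 or with the values as deposited. SFRP4, a secreted antagonist that binds WNT ligands, was at 5.79, 6.31 and 5.44 TPM in clone 8 and 222, 210 and 230 TPM in clone 9. Its log2 fold change of -5.02 ± 0.18 (SE, adjusted p = 9.73e-13) was the largest fall under the naming rule. FRZB, a relative of SFRP4, averaged 0.349 and 3.84 TPM, and SOST, sclerostin, which blocks the WNT coreceptor, 0.0449 and 6.75 TPM. RSPO3, which enhances WNT signals, was higher, at 2.98, 2.46 and 3.66 TPM against 0.284, 0.329 and 0.207 TPM. The 3 named antagonists were thus higher in clone 9, and the named enhancer in clone 8, as was ROR2 of the receptor kinase list. The other called members of the WNT list are not named here, so this does not describe the list.

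TGF-beta, BMP and activin genes had 6 of 37 tested members lower and 1 higher, with a median of -0.42. BMP7 was at 0.358, 0.896 and 0.143 TPM in clone 8 and 8.16, 6.79 and 9.23 TPM in clone 9, a log2 fold change of -2.65. ACVRL1, the endothelial BMP receptor ALK1, was at 0.316, 0.179 and 0.0385 TPM against 5.35, 5.33 and 6.08 TPM. Of the endothelial markers, 5 of 7 were under 1 TPM in all 6 libraries, and none of the 3 tested was called by limma or had an unadjusted p under 0.05. GDF5 averaged 0.615 and 3.68 TPM and LTBP3, which anchors latent TGF-beta in matrix, 71.5 and 200.1 TPM. BMP4, named after its value was seen, was the riser at 1.31.

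Notch genes had 3 of 15 tested members higher and none lower. HEY1, a Notch target, was at 47.5, 46.2 and 43.3 TPM in clone 8 and 16.8, 15.2 and 15.1 TPM in clone 9, a log2 difference of 1.48 ± 0.39 (SE, adjusted p = 0.0105), with an adjusted p of 0.0604 without clone 8 replicate 3 and clone 9 replicate 2. JAG1, a Notch ligand, had means of 43.4 ± 13.2 and 20.5 ± 3.55 TPM and a log2 fold change of 1.01. It lost its call with the values as deposited (0.89) and without clone 8 replicate 1 (0.85), clone 8 replicate 2 (0.90) or clone 9 replicate 2 (0.87). HES4 was at 38.1, 46.8 and 88.6 TPM against 21.3, 27.8 and 19.8 TPM, and without replicate 3 of clone 8 its log2 fold change went from 1.22 to 0.86, below the threshold.

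YAP and TEAD targets had 4 of 22 tested members lower and none higher, and 4 and 1 without clone 8 replicate 3. The list's median was 0.09, its mean -0.28 and its median with the values as deposited -0.03. F3, tissue factor, the starter of coagulation, was at 15.2, 14.8 and 11.3 TPM in clone 8 and 195, 164 and 198 TPM in clone 9, a log2 difference of -3.66 ± 0.16 (SE, adjusted p = 1.30e-11). CCDC80, a matrix protein, averaged 64.6 and 284 TPM, FJX1 3.54 and 11.9 TPM, and IGFBP3 54.4 and 116 TPM.

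Matrix proteases and their inhibitors had 7 of 40 tested members lower and 3 higher. CPA4, a secreted carboxypeptidase, was at 65.3, 65.5 and 54.4 TPM in clone 8 and 669, 600 and 681 TPM in clone 9, a log2 fold change of -3.38. The procollagen peptidase ADAMTS2 went the other way, at 18.6, 23.5 and 15.5 TPM against 2.48, 2.30 and 2.14 TPM. ADAMTS9, a protease that cleaves proteoglycans, averaged 3.50 TPM in clone 8, 40.7 TPM in clone 9 and 13.1 TPM in untreated cells, between them.

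Adhesion genes moved in both directions. VCAM1, the counter-receptor of integrin alpha-4 beta-1, was at 91.1, 88.3 and 56.1 TPM in clone 8 and 779, 612 and 823 TPM in clone 9, a log2 difference of -3.24 ± 0.21 (SE, adjusted p = 3.72e-09). ITGA4, that integrin's alpha chain, was at 10.2, 10.5 and 3.53 TPM against 37.4, 20.0 and 40.5 TPM, lower too in clone 8. ITGA5, the alpha chain of the main fibronectin receptor, was at 703, 636 and 498 TPM against 120, 112 and 115 TPM, a log2 difference of 2.38 ± 0.14 (SE, adjusted p = 9.70e-10). The integrin chains ITGA4 and ITGA5 thus differed in opposite directions.

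Of 31 tested integrins and laminins, 7 were lower and 2 higher, and 7 and 4 without clone 8 replicate 3. The laminin chains LAMA4 and LAMA5 averaged 7.60 and 56.2 TPM and 18.2 and 92.6 TPM. The cadherin and immunoglobulin-type adhesion list had 11 of 38 tested members lower and 5 higher. CDH11, the cadherin of mesenchymal cells, was at 10.7, 13.3 and 4.09 TPM against 50.7, 27.4 and 59.9 TPM, and the protocadherin PCDH18 averaged 6.12 and 48.0 TPM. In both, the lowest library of each clone was the one described above as standing apart. CDH18 was higher, at 4.33 and 0.407 TPM on average.

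Axon guidance genes had 6 of 27 tested members lower and none higher. SEMA3F, a secreted repellent, was at 0.483, 0.559 and 0.319 TPM in clone 8 and 5.92, 5.22 and 5.73 TPM in clone 9, a log2 fold change of -2.19. The repellents SLIT3 (-1.69) and SLIT2 (-1.47) and the semaphorin SEMA3B (-1.22) were also lower. Of 30 tested HOX genes, HOXA5 alone was called, at -1.19 with means of 3.54 and 9.38 TPM. Schwann and neuronal markers had none of 7 tested members called by limma, and 3 at an unadjusted p under 0.05.

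The chemokines called higher in clone 8 were all of the CC family. CCL3 and CCL5 draw monocytes and T cells, while CXCL1 and CXCL2 draw neutrophils. CCL5 was at 261, 263 and 525 TPM in clone 8 and 20.8, 30.1 and 19.7 TPM in clone 9, a log2 difference of 3.78 ± 0.29 (SE, adjusted p = 2.87e-08). CCL3 was at 21.8, 23.2 and 33.8 TPM against 0.611, 0.390 and 0.178 TPM, a log2 fold change of 4.28. Clone 8 replicate 3 was the highest for both, and without it the log2 fold changes were 3.44 and 4.09.

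CCL3L3, a near-identical copy of CCL3, rose by 3.39, and the division of reads between the copies is uncertain. CXCL14 was at 0.572, 0.587 and 1.51 TPM in clone 8 and 13.3, 18.3 and 11.4 TPM in clone 9. CXCL1 and CXCL2, named after their values were seen, averaged 10.3 and 47.1 TPM and 1.12 and 9.10 TPM. CXCL3 (-1.36) and, of the CC family, CCL26 (-1.76) were lower as well, and CXCL3 lost its call without clone 8 replicate 3 (adjusted p = 0.0593). In all, 3 of 22 tested chemokines and receptors were higher and 5 lower.

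Complement genes had 8 of 19 tested members lower in clone 8 and none higher, the largest share called lower of the 42 lists, with a median of -0.40. Complement tags surfaces for clearance. The C1 proteases and C4 start its classical arm, and factor I, C1 inhibitor and clusterin restrain it. CFI, factor I, was at 6.08, 5.26 and 4.09 TPM in clone 8 and 96.9, 86.6 and 102 TPM in clone 9, a log2 difference of -3.98 ± 0.34 (SE, adjusted p = 9.95e-08). CLU, clusterin, was at 35.1, 39.9 and 37.5 TPM against 381, 355 and 416 TPM, a log2 difference of -3.32 ± 0.22 (SE, adjusted p = 4.03e-09).

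Starters and restrainers of the cascade were thus lower together. MASP1, a protease of the lectin arm, averaged 1.48 and 14.5 TPM, and C4B 2.13 and 14.5 TPM. C4A is nearly identical to C4B, so each of them is uncertain. Named after their values were seen, C1R and C1S averaged 798 and 2637 TPM and 211 and 693 TPM, C4A 2.44 and 11.9 TPM, and SERPING1, C1 inhibitor, 0.315 and 2.88 TPM. The count of 8 lower and none higher also stood without clone 8 replicate 3 and with the values as deposited. LBP, a plasma protein that binds bacterial lipopolysaccharide, was at 0.463, 0.407 and 0.642 TPM against 44.6, 45.6 and 43.9 TPM, a log2 fold change of -4.93.

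Interferon-stimulated genes had 10 of 50 tested members higher and 2 lower in clone 8. OASL, an antiviral protein related to oligoadenylate synthetases, was at 89.8, 95.0 and 96.5 TPM in clone 8, 15.1, 14.2 and 15.1 TPM in clone 9 and 1.14 TPM on average in untreated cells. Its log2 fold change was 2.58 ± 0.21 (SE, adjusted p = 4.90e-08). IFIT2, which binds foreign RNA, was at 96.9, 93.6 and 60.3 TPM against 19.8, 16.3 and 22.2 TPM. ISG20, a nuclease, averaged 36.8 ± 15.6 and 11.9 ± 3.05 TPM.

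The other members did not follow as a block. IFI27 was lower, at 43.2, 59.9 and 105 TPM against 176, 230 and 179 TPM, a log2 fold change of -1.56. IFITM1, which blocks viral entry, had means of 383 and 369 TPM and was not called (adjusted p = 0.912), far above 1.16 TPM in untreated cells. Without clone 8 replicate 3 the counts were 10 and 3. Genes of HLA, antigen processing and immune ligands had 1 of 38 tested members higher and 1 lower, beside 1.86% and 3.19% of all genes tested. TAPBP, which loads peptides on HLA class I, was lower at -1.16 and lost its call without clone 9 replicate 2, at -0.997. CD70, a costimulatory ligand, was higher at 1.18 and lost its call without clone 8 replicate 3, at 0.96.

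The list of IL6, IL1 and other cytokines and receptors had 8 of 32 tested members lower and 3 higher, and 5 and 3 without clone 8 replicate 3. IL33, an alarm cytokine of barrier cells, was at 3.00, 2.77 and 2.90 TPM in clone 8 and 0.267, 0.0708 and 0.112 TPM in clone 9, a log2 fold change of 1.76. TSLP, another, was at 15.5, 16.7 and 17.0 TPM against 46.8, 45.2 and 47.9 TPM, a log2 fold change of -1.45. The receptors IL15RA (-1.53) and IL1R1 (-1.42) were lower.

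The NF-kappa-B and TNF superfamily list had 3 of 31 tested members higher and 2 lower. The feedback inhibitor TNFAIP3 was at 23.8, 26.3 and 8.38 TPM in clone 8 and 6.74, 3.61 and 5.82 TPM in clone 9, a log2 fold change of 1.57 that was 2.06 without clone 8 replicate 3. BIRC3, an inhibitor of cell death, was higher by 1.25. TNFRSF11B, osteoprotegerin, a decoy receptor, was at 29.2, 27.2 and 10.1 TPM against 156, 104 and 172 TPM, and its adjusted p was 0.0506 without clone 8 replicate 3 and clone 9 replicate 2. TNFSF15 averaged 0.697 and 3.08 TPM.

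Immune cell markers had 2 of 4 tested members higher in clone 8. PTPRC, the leukocyte antigen CD45, was at 4.88, 4.63 and 2.83 TPM against 1.01, 0.615 and 1.05 TPM, and CSF1R averaged 6.05 and 2.47 TPM. CSF1R lost its call with the values as deposited (log2 fold change 0.91) and without clone 8 replicate 1 (0.99), clone 8 replicate 2 (0.93) or clone 9 replicate 1 (0.98). In all 6 libraries CD3E, LYZ, CD14 and ITGAM were under 1 TPM. The summed level of the 9 markers was 196 to 280 TPM in clone 8, 265 to 329 TPM in clone 9 and 169 to 170.3 TPM in untreated cells. CD68, which was not called, alone ranged from 184 to 320 TPM over the 6 libraries of the clones. Their sum was thus mostly CD68.

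Some genes of redox defence were lower in clone 8. NRF2, encoded by NFE2L2, turns on genes that make glutathione, reduce aldehydes and store iron. NFE2L2, named after its values were seen, was at 94.9, 88.1 and 73.1 TPM in clone 8 and 252, 236 and 245 TPM in clone 9, with 117 TPM on average in untreated cells. Of 42 tested metallothioneins, NRF2 targets and ferroptosis defence genes, 9 were lower and none higher, with a median of -0.47. Without clone 8 replicate 3, 11 were lower, and without clone 9 replicate 2, 10 were lower and 1 higher.

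AKR1B10, an aldo-keto reductase, was at 0.549, 0.493 and 0.806 TPM in clone 8 and 27.4, 28.9 and 24.3 TPM in clone 9, a log2 difference of -4.11 ± 0.24 (SE, adjusted p = 9.48e-10). It has close paralogs, so its level is uncertain. SRXN1, sulfiredoxin, was at 29.5, 31.9 and 27.7 TPM against 109, 100.0 and 110.2 TPM. SLC7A11, the cystine importer, averaged 6.30 and 22.4 TPM. HTATIP2, an oxidoreductase, was at 0.0550, 0 and 0.123 TPM in clone 8, 8.39, 10.3 and 8.91 TPM in clone 9 and 1.25 TPM on average in untreated cells. Clone 8 was thus below the parental level for this gene.

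Genes of lipid uptake and storage differed in both directions. G0S2, which inhibits the lipase that breaks down stored fat, was at 40.3, 53.2 and 64.7 TPM in clone 8 and 0.886, 0.554 and 0.542 TPM in clone 9, a log2 difference of 5.00 ± 0.28 (SE, adjusted p = 4.58e-10). The fatty acid carriers CD36 and FABP5 averaged 35.7 ± 8.40 and 6.49 ± 1.32 TPM and 140 ± 63.7 and 33.3 ± 4.86 TPM. CD36 lost its call without clone 8 replicate 2 (adjusted p = 0.0582) or clone 9 replicate 2 (adjusted p = 0.0586). APOD was lower, at 2.04 and 9.71 TPM on average, and lost its call whichever of the 6 libraries was left out (adjusted p of 0.0638 to 0.125). In the list of fatty acid uptake, lipid storage and lipolysis, 5 of 39 tested members were higher and 5 lower.

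Cholesterol and fatty acid synthesis had 4 of 36 tested members lower and none higher, with a median of -0.48. SCD, which desaturates fatty acids, was at 156, 149 and 104 TPM in clone 8 and 448, 340 and 482 TPM in clone 9, with 429 TPM on average in untreated cells. The sterol enzymes MSMO1 (-1.61) and DHCR7 (-1.28) and the desaturase FADS1 (39.8 and 80.8 TPM on average) were the others. FADS1 lost its call without clone 8 replicate 2 (-0.97) or clone 9 replicate 1 (-0.98).

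The kynurenine route breaks down tryptophan and can end in NAD. It begins with TDO2 or IDO1 and passes through KYNU and QPRT. QPRT was at 1.23, 1.65 and 2.27 TPM in clone 8, 22.0, 25.3 and 24.0 TPM in clone 9 and 13.4 TPM on average in untreated cells, a log2 difference of -3.20 ± 0.19 (SE, adjusted p = 7.72e-10). KYNU was at 0.411, 0.485 and 0.354 TPM against 8.00, 8.50 and 7.26 TPM. TDO2 averaged 26.3 and 78.4 TPM, and IDO1, higher in clone 8, 2.01 and 0.355 TPM. The starting enzymes thus differed in opposite directions, and both later enzymes were lower in clone 8. In the list of NAD, tryptophan and one-carbon metabolism, 3 of 24 tested members were lower and 1 higher.

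Retinoid genes and ABC transporters had 4 of 35 tested members lower and none higher. Beside ALDH1A1, these were the retinal reductase DHRS3 (-1.72), the retinol receptor STRA6 (-1.60) and the transporter ABCC1 (-1.45). The adjusted p of STRA6 was 0.0596 without clone 8 replicate 3 and clone 9 replicate 2. Lysosome genes had 5 of 36 lower and 1 higher. The cathepsin CTSD was at 616, 650 and 708 TPM in clone 8 and 1733, 1951 and 1764 TPM in clone 9, a log2 fold change of -1.46, and the cathepsins CTSC and CTSO were also lower, at -1.46 and -1.24. ATP6V0D2, a proton pump subunit, was the riser, at 3.42 and 0.789 TPM on average.

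Glycolysis and hypoxia genes had 2 of 36 tested members lower and 1 higher, beside 3.19% and 1.86% of all genes tested. P4HA1, which hydroxylates prolines of collagen, was at 38.5, 36.4 and 34.6 TPM against 136, 119 and 136 TPM, a log2 fold change of -1.81, and ADM, adrenomedullin, averaged 121 and 353 TPM. PFKFB4, a regulator of glycolysis, was higher by 1.24. With the values as deposited, 5 members of this list were called lower. Integrated stress and amino acid transport genes had 3 of 41 lower and none higher, namely SLC7A11, the glycine transporter SLC6A9 (-1.45) and the lipoprotein receptor VLDLR (-1.09). VLDLR was not called without clone 8 replicate 3, at -0.85, or without clone 9 replicate 3, at -0.97.

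Genes of the respiratory chain had 1 of 39 tested members higher, beside 1.86% of all genes tested. This was UQCRC1, at 227, 247 and 383 TPM against 124, 140 and 121 TPM. It lost its call without clone 8 replicate 3, where the log2 fold change was 0.88. Cytosolic ribosomal protein genes had none of 40 called by limma and 14 at an unadjusted p under 0.05. Their median of 0.40 was 0.08 without clone 8 replicate 3, the library with the largest ribosomal share. Chromatin and DNA methylation enzymes had none of 35 called and 9 at an unadjusted p under 0.05.

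The direct output of the MAPK pathway differed in single genes. Active ERK induces phosphatases of the DUSP family and Sprouty proteins, which dampen the pathway. DUSP6 was at 265, 286 and 113 TPM in clone 8 and 167, 116 and 194 TPM in clone 9, with overlap, and was not called (log2 fold change 0.40, adjusted p = 0.636). SPRY1 was at 3.57, 3.38 and 4.69 TPM in clone 8, 30.8, 31.6 and 32.5 TPM in clone 9 and 40.4 TPM on average in untreated cells, a log2 difference of -2.75 ± 0.18 (SE, adjusted p = 3.72e-09). SPRY4 was at 4.52, 4.22 and 2.26 TPM against 10.2, 8.20 and 10.5 TPM. Its log2 fold change was -1.22, and -0.98 and uncalled without clone 8 replicate 3.

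FOSL1, an AP-1 subunit induced by ERK, was at 248, 245 and 261 TPM against 111, 121 and 116 TPM, a log2 difference of 1.11 ± 0.31 (SE, adjusted p = 0.0144). It was not called with the values as deposited (0.98), without clone 9 replicate 1 (adjusted p = 0.0510) or without clone 8 replicate 3 and clone 9 replicate 2 (adjusted p = 0.0748). DUSP10, a phosphatase of the stress kinases, averaged 80.6 and 35.3 TPM. The MAPK list thus had 2 of 22 tested members higher and 2 lower, and 3 and 1 without clone 8 replicate 3. AP-1 and immediate early genes had 2 of 26 higher and none lower, FOSL1 and BATF3, at 14.7 ± 5.42 and 4.49 ± 0.169 TPM. EGR1, an immediate early factor, averaged 269 and 266 TPM and BRAF 8.97 and 9.79 TPM, and neither was called.

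Single melanocyte genes differed between the clones. Of 14 tested lineage factors, SOX6 alone was called, at 0.977, 0.678 and 0.963 TPM in clone 8, 3.57, 3.09 and 3.08 TPM in clone 9 and 25.0 TPM on average in untreated cells. MITF, the master regulator of pigment cells, averaged 25.0 ± 4.56 and 21.0 ± 2.64 TPM and was not called (adjusted p = 0.383). MLANA, a melanosome protein, was at 5.99, 7.12 and 7.54 TPM against 3.37, 2.67 and 2.27 TPM. Its log2 fold change of 1.07 ± 0.84 (SE) was not called (adjusted p = 0.424). Its libraries did not overlap between the clones, and the SE is from the fit over all 8 groups. SOX10 (log2 fold change 0.70, adjusted p = 0.548) and PMEL (-0.21, adjusted p = 0.904) were not called either. Of 19 tested melanosome and pigment genes, RAB38, a transporter of pigment enzymes, was higher (2.74 and 0.512 TPM on average) and EDNRB, the endothelin B receptor, lower (0.160 and 3.17 TPM), beside 5.05% of all genes tested called in either direction. RAB38 was not called without clone 8 replicate 3 and clone 9 replicate 2 (adjusted p = 0.101). With the 6 libraries of the clones alone, 2 members of the melanosome and pigment list were called higher.

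Of 47 tested DNA replication and mitosis genes, 2 were called higher and none lower, beside 1.86% and 3.19% of all genes tested, with a median of 0.35. AURKB and CDC20, both regulators of mitosis, averaged 148 and 67.4 TPM and 172 and 78.3 TPM. Without clone 8 replicate 3 their log2 fold changes were 0.99 and 0.91 and neither was called, and neither was with the values as deposited. MKI67, a proliferation marker, averaged 26.3 and 27.4 TPM and CCND1, cyclin D1, 327 ± 4.66 and 218 ± 2.34 TPM. The difference in CCND1 was 0.59 on the log2 scale (adjusted p = 0.0129), below the fold threshold, with no overlap between libraries.

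CDK inhibitors, cyclins and p53 targets had 4 of 36 tested members higher and 1 lower, and 2 and 1 without clone 8 replicate 3. PMAIP1, the death gene NOXA, was at 71.1, 74.2 and 54.8 TPM against 22.6, 18.1 and 22.6 TPM, a log2 fold change of 1.61. CDKN1A, the cell cycle inhibitor p21, averaged 21.9 and 8.79 TPM with a log2 fold change of 1.23 (adjusted p = 0.0291), and its adjusted p was 0.0560 to 0.0873 when each of the 6 libraries was left out in turn, so that every such fit lost the call. FDXR was higher by 1.11, and at 0.87 and uncalled without that library. BCL2 family genes had 2 of 18 higher, PMAIP1 and BCL2A1, and BCL2A1 went from 1.04 to 0.84 and lost its call without that library, as it did without clone 9 replicate 1 or clone 9 replicate 3 (0.99 in both). CDKN1A, FDXR and BCL2A1 were also uncalled with the values as deposited.

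Small groups completed the picture. S100 genes had 3 of 11 tested members higher and none lower. S100A6 was at 1414, 1860 and 3386 TPM in clone 8 and 686, 847 and 714 TPM in clone 9, S100A3 averaged 18.3 and 4.44 TPM, and S100A2 went from 1.13 to 0.62 and lost its call without clone 8 replicate 3. It lost it too without clone 9 replicate 1 (adjusted p = 0.122) or clone 9 replicate 3 (adjusted p = 0.146). Cancer-testis antigens had 3 of 16 higher, CSAG1 (2.32), MAGEA12 (1.59) and CSAG2 (1.48), and MAGEA3 lower (-1.35). These families hold near-identical copies, so their values are uncertain.

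The remaining genes with the largest rises belong to no list. APLNR, the apelin receptor, was at 22.6, 23.0 and 19.0 TPM in clone 8 and 0.759, 0.813 and 0.944 TPM in clone 9, a log2 fold change of 3.61. SCG5, a chaperone of a prohormone protease, averaged 134 and 10.9 TPM. TPRG1 averaged 15.5 and 0.473 TPM, and SLC24A3, a calcium exchanger, 21.4 and 1.83 TPM.

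Those with the largest falls outside the lists included hormones and precursors. AGT, angiotensinogen, was at 15.2, 16.7 and 16.5 TPM in clone 8 and 286, 318 and 293 TPM in clone 9, a log2 fold change of -4.13. TAC3, the precursor of neurokinin B, averaged 0.480 and 29.7 TPM. TMEM100, a membrane protein, averaged 0.364 and 33.3 TPM, and PRND, a relative of the prion protein, 1.18 and 42.9 TPM. The immunoglobulin constant gene IGHG4 averaged 0.0548 and 30.6 TPM, which is uncertain because its family members are close in sequence.

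**Figure D3:**
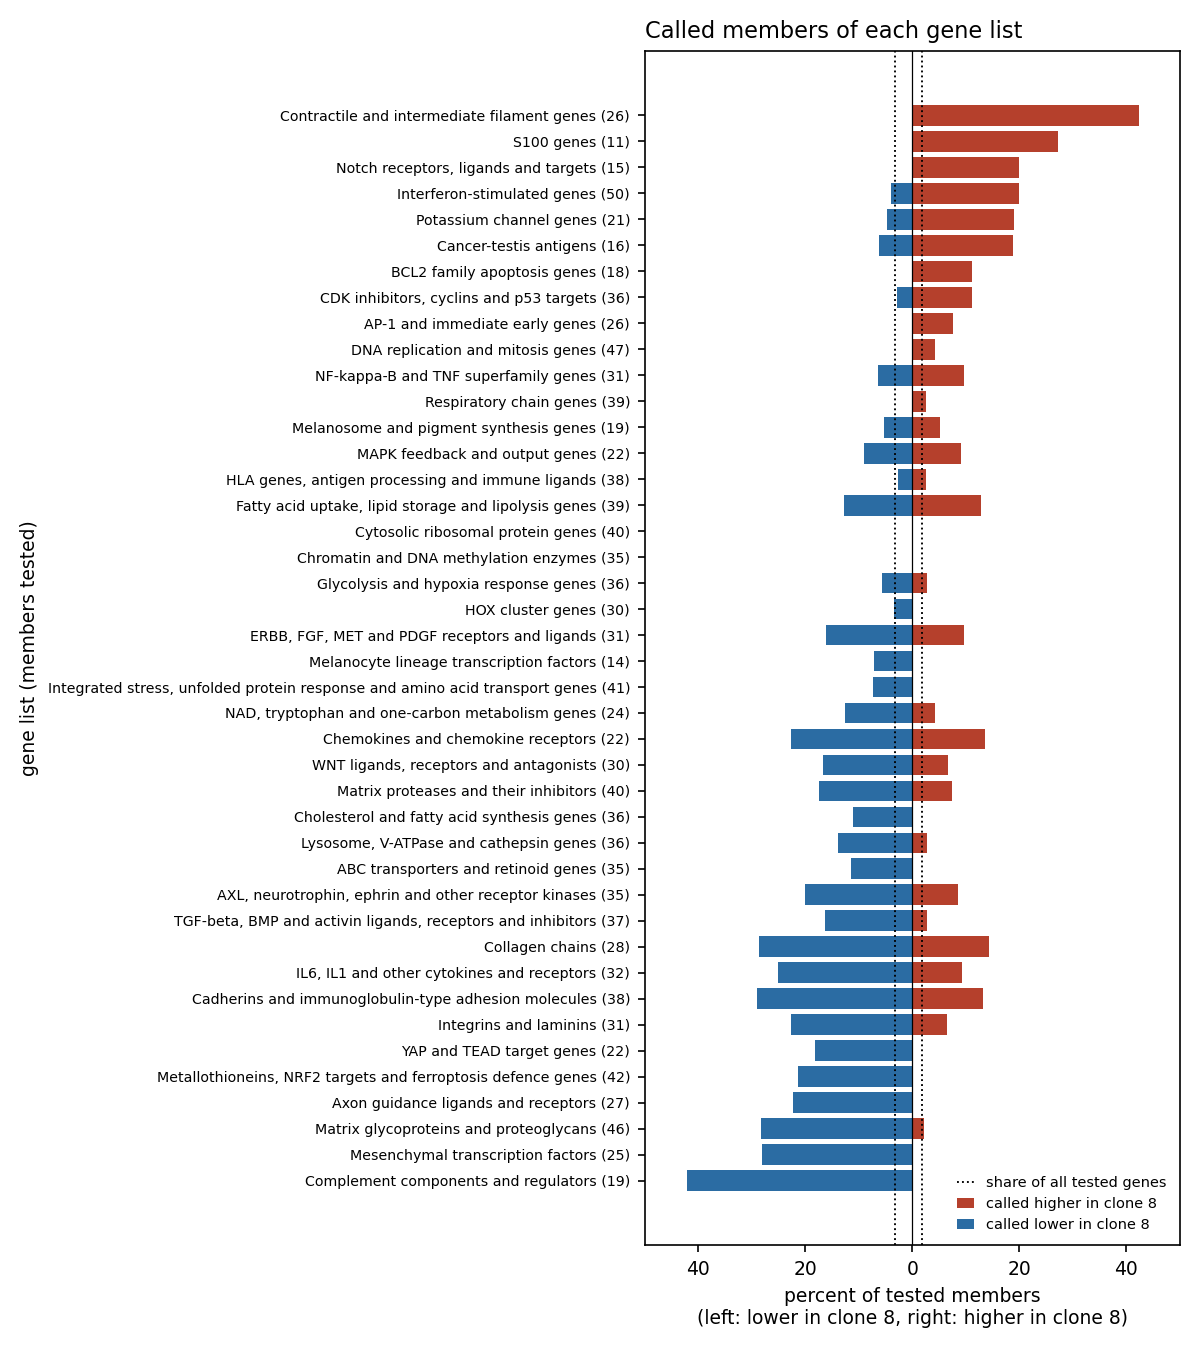
Share of the tested members of each of 42 gene lists called higher (red, to the right) or lower (blue, to the left) in clone 8, in percent, with the number tested in brackets and dotted lines at the share over all genes tested (1.86% and 3.19%). The contractile list reaches farthest to the right and the complement list farthest to the left.

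Position in the genome was also described, with no test. For 14198 of the tested genes a chromosome was assigned. The median log2 fold change of the genes of a chromosome was -0.29 on chromosome 4 and -0.26 on chromosome 16, against -0.01 over all genes, and 80.3% and 79.7% of the genes there lay below 0. On chromosome 13 the median was 0.31 and 19.0% of genes lay below 0. Smaller shifts were seen on chromosomes 7 (-0.20), 20 (-0.18), 17 (0.14) and 1 (0.10). The shifts were of like size without clone 8 replicate 3 and clone 9 replicate 2, at -0.28, -0.28 and 0.34 for chromosomes 4, 16 and 13.

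Single libraries showed the same. Relative to untreated cells, the median of chromosome 4 genes was -0.07, -0.06 and -0.13 in the libraries of clone 8 and 0.18, 0.14 and 0.21 in those of clone 9. For chromosome 16 it was -0.32, -0.30 and -0.21 in clone 8 and -0.05, 0.04 and -0.05 in clone 9. For chromosome 13 it was -0.39, -0.36 and -0.48 against -0.71, -0.81 and -0.69, so that both clones were below untreated cells and clone 9 further. The libraries of the clones did not overlap on these 3 chromosomes, as on 11 of 23 chromosomes in all.

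The shifts ran along the chromosomes. When the genes of a chromosome were divided by position into 10 bins, every bin of chromosomes 4 (-0.42 to -0.19), 16 (-0.35 to -0.14) and 7 (-0.30 to -0.11) had a median below 0 and every bin of chromosome 13 (0.21 to 0.49) above 0. Chromosomes 20 (-0.35 to 0.02) and 17 (-0.09 to 0.35) were mixed. Called genes were also frequent on chromosomes 4 and 20, at 10.1% and 9.25% of tested genes against 5.05% of all tested genes. PDGFRA, CFI and PCDH18 lie on chromosome 4, with differences of -3.67, -3.98 and -2.82. They were named for large differences, so their size says nothing about the shift of the chromosome. The part of that shift in them was not tested.

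**Figure D4:**
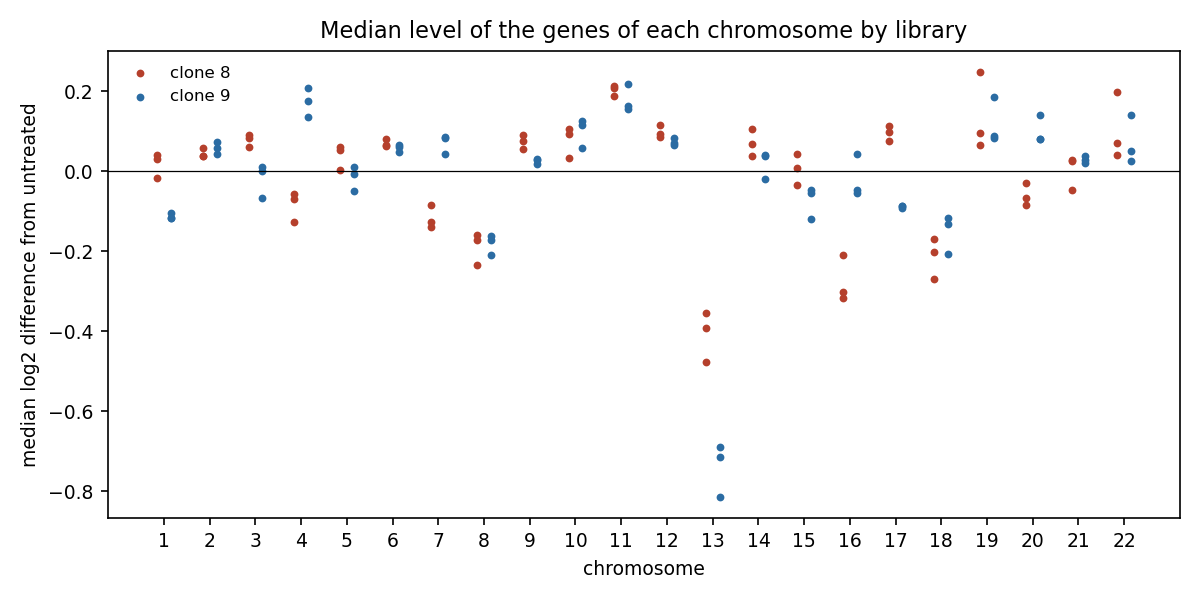
Median log2 difference from untreated cells over the tested genes of each chromosome except X, with 1 point per library of clone 8 (red) and clone 9 (blue). The libraries of the clones do not overlap on chromosomes 4, 7, 16 and 20, where clone 8 is lower, and on chromosomes 1, 3, 9, 12, 13, 15 and 17, where clone 9 is lower.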

How the data were processed

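The study holds 23 libraries of poly(A) RNA, read from both ends and randomised before extraction, per the labels' protocols. The authors deposited 1 table of 35438 genes whose columns all have the same total, read here as TPM. For its making, kallisto and the build hg19 appear in the submitters' processing notes. Its transcript annotation, gene summing and filters were not given in the sources used here. Depth cannot be read from TPM, so no counting interval is given and the precision is the spread between libraries.

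From the deposited TPM, libraries were scaled by a trimmed mean of log ratios (30% of log ratios and 5% of levels trimmed on each side, over 10822 genes at 1 TPM or more in every library). The test covered 15657 genes, those with 1 TPM or more in 2 libraries or more, as log2(scaled TPM + 1), which understates the change of low genes. All 23 libraries in 8 groups entered 1 limma fit (3.58.1, R 4.3.3, lmFit and eBayes with trend), which was also tested on simulated data. Adjusted p-values are limma's, by Benjamini-Hochberg over all 15657 genes, and every adjusted p in the text comes from that fit unless said otherwise. A call required an adjusted p under 0.05 and a log2 fold change of at least 1 in size.

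The members and lists were chosen with earlier results of these data known. Named genes are the 14 largest rises and 14 largest falls among called genes without overlap between the clones and with at least 5 TPM in the higher clone, up to 4 called members per list, a panel of 15 genes, and up to 8 called genes with untreated cells between the clones. Others are said to be named after their values were seen. Some list members are not reported here. The CArG box was added to the motifs searched after the calls were known. Lists and chromosomes are described by counts and medians, with no test. Promoter sequences are from RefSeq (GRCh38.p14), and no coordinates were carried over to hg19. Same-numbered libraries of the clones were checked for pairing by the correlation of their deviations from the clone means (0.35, -0.62 and -0.57 for numbers 1 to 3). The libraries that stood apart, clone 8 replicate 3 and clone 9 replicate 2, correlated at 0.72 and carry different numbers. The check is shaped by them and cannot decide whether the numbers pair. The numbers were not used as a block in the main fit. Other scalings, pseudocounts, filters, fits and left-out libraries were tried, and the closing section gives their effect.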

Additional observations from a re-analysis of the deposited data

How the results depend on the processing

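The counts of higher and lower genes, 292 and 499, stayed within 1.5 times of these values under every alternative run. They were 237 and 605 with the values as deposited, where the median difference over all genes was -0.11 in place of -0.01, and 305 and 476 with median-of-ratios scaling. A pseudocount of 0.1 gave 431 and 700 and 0.5 gave 379 and 580. No filter gave 287 and 483, a filter of 1 TPM in at least 3 libraries 291 and 497, the 6 libraries alone 279 and 497, and robust eBayes 292 and 499. Leaving out 1 library of the clones at a time gave 282 to 340 higher and 464 to 533 lower genes. The fit with the replicate number as a block, on the 6 libraries alone, gave 198 higher and 360 lower genes. The labels share only the numbers, and the correlations of same-numbered libraries cannot decide whether they pair.

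Of 152 called genes named by the rule, none changed sign. The number that lost the call was 9 with the values as deposited, 1 with median-of-ratios scaling, 3 with a pseudocount of 0.1, 3 with no filter, 4 with the 6 libraries alone, 4 to 12 when 1 library was left out, most without clone 8 replicate 3, and 13 without that library and clone 9 replicate 2 together, an alternative chosen after the data were seen. With the replicate block on the 6 libraries it was 31. Depth is unknown, so low genes carry an error that only the spread between libraries shows.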
